A study of Mus musculus with 6 samples.

Results

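The genes described here encode enzymes and carriers of fatty acid oxidation. These 34 genes were taken by symbol from knowledge of the pathway, with earlier results of these data known. The lists of other genes and markers used below were chosen in the same way. All 34 genes were found by gene ID among the 24415 rows of the count table. By their known location 19 were grouped as mitochondrial, 9 as peroxisomal, 3 as present in both compartments and 3 as acting before either, in acyl-CoA formation or carnitine uptake. RNA was sequenced from white adipose tissue of the inguinal depot, which lies under the skin, of mice aged 12 weeks on a C57BL/6 background that were not fasted. The groups were WT (3 libraries) and Hsp20 KO, a knockout of the small heat shock protein Hsp20, the product of Hspb6 (3 libraries). The labels number the libraries as replicates without saying that each is a separate mouse, so p-values measure the spread between these libraries, which may be technical. The part of Hspb6 removed, and whether it is removed in every tissue, were not stated in the labels, nor was the sex of the mice.

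Libraries held between 14078936 and 32648746 counts, and the smallest was the one labelled Hsp20 KO replicate 3. Hspb6 was at 12.6, 9.43 and 8.95 CPM (counts scaled to a common library size after TMM normalization) in WT replicates 1 to 3. It was at 8.86, 1.51 and 3.94 CPM in the libraries labelled Hsp20 KO replicates 1 to 3. By Hspb6 the one labelled replicate 1 thus lay close to WT and goes against its label. On the first principal component of log2 CPM over all tested genes (51.6% of variance) that library stood at 17.3. The libraries labelled replicates 2 and 3 stood at 37.0 and 35.0, and the WT libraries between -32.2 and -27.2. The log2 change of Hspb6 was -1.08 ± 0.51 (SE) and did not pass (edgeR quasi-likelihood, adjusted p = 0.227). Without the library labelled replicate 1 it was -1.99, and Hspb6 fell (adjusted p = 0.0221). Because of these Hspb6 levels, all directions below refer to libraries as labelled. For the main counts and several genes, values without the one labelled Hsp20 KO replicate 1 are given too. Of 8 fixed markers of adipocytes 0 were called by edgeR, and before adjustment (p under 0.05) 1 was higher and 1 lower. Their summed level was 10692 to 13098 CPM in WT and 10786 to 15438 CPM in the libraries labelled Hsp20 KO.

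Fatty acids are first joined to coenzyme A by acyl-CoA synthetases. Long-chain acyl groups then enter mitochondria as carnitine esters, made by carnitine palmitoyltransferase 1 on the outer membrane and turned back to acyl-CoA by carnitine palmitoyltransferase 2 inside. There each turn of beta-oxidation takes an acyl-CoA dehydrogenase, a hydratase, a hydroxyacyl-CoA dehydrogenase and a thiolase, and the electrons pass through the electron transfer flavoprotein to the respiratory chain. Peroxisomes take up very long and branched acyl-CoAs through ABC transporters and shorten them with acyl-CoA oxidases, which give their electrons to oxygen. In thermogenic fat, mitochondrial oxidation of fatty acids feeds heat production.

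Promoter windows of members are shown first, and their part in the changes described below was not tested. RefSeq promoter windows (GRCm38.p6, 250 bases before to 50 bases after a start site) matched 28 of the 34 genes, with 31 windows in all, and Abcd2, Acaa2, Cpt1b, Crat, Decr1 and Hsd17b4 were not among them. Hadha and Hadhb, the 2 subunits of the mitochondrial trifunctional protein, are transcribed away from each other on chromosome 5, with 272 bases between their start sites. Their upstream windows of 250 bases share 228 bases. Both genes rose, and whether the shared stretch has a part in this was not tested. The stretch between them, chr5:30154981-30155252 on the plus strand, is printed with its 18 CG dinucleotides in capitals.
Hadha-Hadhb: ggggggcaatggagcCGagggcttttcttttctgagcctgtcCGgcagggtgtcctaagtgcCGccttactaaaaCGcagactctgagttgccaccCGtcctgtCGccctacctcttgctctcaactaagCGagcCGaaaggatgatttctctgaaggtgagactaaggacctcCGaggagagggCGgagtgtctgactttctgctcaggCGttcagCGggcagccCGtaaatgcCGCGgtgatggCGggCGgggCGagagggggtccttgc
The G+C content of this stretch was 60.3%. Over the 31 windows of members the median G+C content was 60.7%, with a median of 17 CG dinucleotides, against 52.7% and 7 over all 32851 windows in the table. No filter on gene type was set for all windows, here or for the motifs below, while every member is protein-coding.

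Nuclear receptors such as the PPARs and the estrogen-related receptors bind repeats or extensions of the half-site AGGTCA, so the windows were searched on both strands. AGGTCA was found in windows of 4 of 28 members (14.3%) and of 18.1% of the 27025 genes with a window, so the share of members was not the higher one. All 4 were among the 16 mitochondrial genes with a window, while 0 of 7 peroxisomal genes with a window had a match. This difference was not tested. The 4 genes were Acadvl, Echs1, Acadm and Cpt1a. Their matches are printed 5′ to 3′ on the gene's own strand, with up to 20 bases to either side and the half-site in capitals (TGACCT is AGGTCA read on the other strand).
Acadvl (chr11:70015490-70015535): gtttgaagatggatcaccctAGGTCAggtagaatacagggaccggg
Echs1 (chr7:140116479-140116524): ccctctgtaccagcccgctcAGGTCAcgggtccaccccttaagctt
Acadm (chr3:153944867-153944893): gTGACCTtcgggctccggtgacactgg
Cpt1a (chr19:3323187-3323232): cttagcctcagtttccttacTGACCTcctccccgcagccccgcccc
In Acadvl and Echs1 the half-site lay 82 to 87 and 78 to 83 bases before the start site, and in Cpt1a 89 to 94 bases before it. Of these 4 genes Acadvl and Acadm rose, while Echs1 and Cpt1a did not pass the test, as described below. The tandem repeat AGGTCANAGGTCA was found in the windows of 0 members and 0.0481% of genes, its looser form AGGNCANAGGNCA in 0 and 0.451%, and the extended half-site TCAAGGTCA in 0 and 0.466%. These motifs contain each other in part, and the windows cover only the stretch nearest the start.

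In the libraries labelled Hsp20 KO, 12 of 19 mitochondrial and 1 of 9 peroxisomal genes of fatty acid oxidation rose, and this difference between the compartments was not tested. With edgeR's quasi-likelihood test over 15994 genes, 16 of the 34 members rose and 0 fell at an adjusted p under 0.05. Over all genes tested, 4.23% were called higher and 3.42% lower. Of the genes of both compartments 2 of 3 rose, and of those of activation and uptake 1 of 3. Before adjustment 25 members were higher at p under 0.05, against 13.3% of all genes, and 0 were lower, and DESeq2 and limma-voom also called 0 lower. All 34 members passed the filter on low counts, Acox2 among them through its higher level in the libraries labelled Hsp20 KO. The filter thus partly set its direction, although Acox2 is counted among the 25. With a filter of at least 1 CPM in 3 libraries, which left Acox2 out, 16 of 33 members were called higher. In that fit 29 members had a positive log2 change, and 672 of 14728 genes were called higher.

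The median log2 change was 0.66 for the mitochondrial genes, 0.24 for the peroxisomal genes, Acox2 among them, and 0.00 for all genes tested. With the filter that left Acox2 out, the peroxisomal median was 0.20 over 8 genes. In the main fit the log2 change was positive in 30 members, Acox2 among them, against 50.1% of all genes. Rises ran from 1.47-fold to 9.19-fold with a median of 1.70-fold, and 5 of the 16 were at least 2-fold. In 24 of the 34 members, Acox2 among them, the lowest library labelled Hsp20 KO lay above the highest WT library, against 16.9% of all genes tested. In all 16 genes that rose, the library labelled Hsp20 KO replicate 1 was the lowest of the 3 and still lay above every WT library. Without it 20 members were called higher and 0 lower, against 5.82% and 4.52% of all genes. In that fit 13 of 19 mitochondrial and 4 of 9 peroxisomal genes were called higher. The 16 genes were among these 20, each with a larger log2 change than with all libraries. Leaving out WT replicate 1, or the library labelled Hsp20 KO replicate 2 or 3, left the same 5 members called. These were Cpt1b, Acadvl, Hadha, Hadh and Acad11, while 325 of 16271, 325 of 16259 and 327 of 16285 genes were called higher in all. The other 11 of the 16 kept their call only in the fit without the library labelled Hsp20 KO replicate 1. Leaving out WT replicate 2 or 3 left 1 member called, Acad11, and 79 or 75 genes called higher in all, while before adjustment (p under 0.05) 23 or 19 members were higher, against 10% (1620 of 16179) or 9.34% (1509 of 16159) of all genes.

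**Figure D1:**
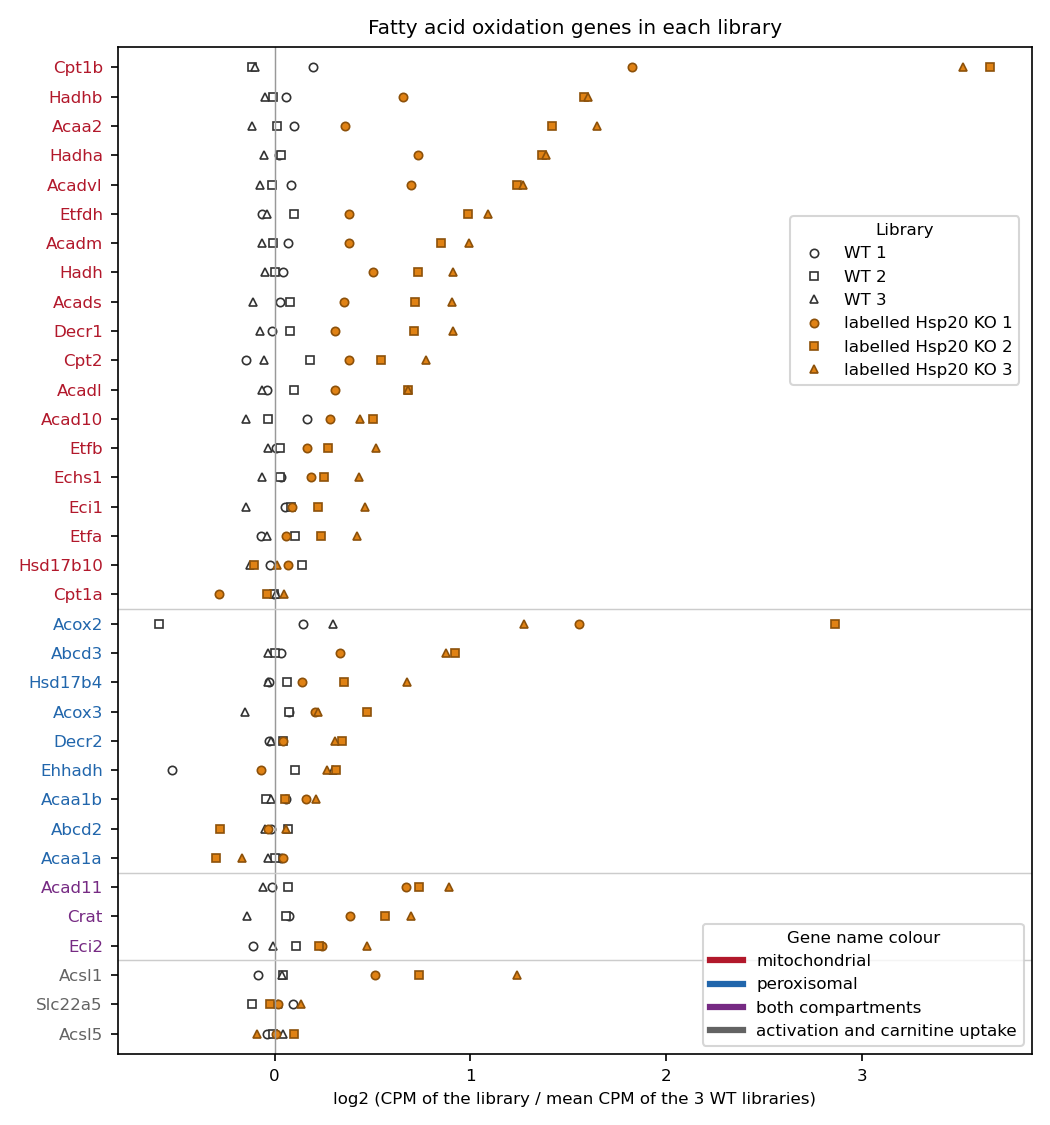
Each row is 1 gene and each point 1 library, plotted as log2 of its CPM over the mean CPM of the 3 WT libraries (open symbols WT, filled symbols libraries labelled Hsp20 KO, gene names coloured by compartment). Filled symbols lie to the right of all open ones in 24 of the 34 genes, with replicate 1 nearest to WT in all 16 genes that rose.

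Entry into mitochondria differed between isoforms. Cpt1b (gene ID 12895, chr15:89416405-89425862, minus strand), the muscle and brown fat form of carnitine palmitoyltransferase 1, was at 11.4, 9.17 and 9.25 CPM in WT. It was at 35.2, 125 and 114 CPM in the libraries labelled Hsp20 KO replicates 1 to 3. The groups did not overlap, and the first of these libraries lay well below the other 2. Cpt1b rose from 9.93 ± 1.25 to 91.4 ± 49.0 CPM (SD, n = 3 each). Its log2 change was 3.20 ± 0.45 (SE, edgeR adjusted p = 0.0112), or 3.59 without the library labelled replicate 1. Cpt1a, the widely expressed liver form, was at 89.6, 89.4 and 90.1 CPM in WT and at 73.7, 87.3 and 92.8 CPM in the libraries labelled Hsp20 KO. Its groups overlapped, and its log2 change was -0.09 ± 0.09 (edgeR adjusted p = 0.613), or 0.01 without the library labelled replicate 1.

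Per kilobase of transcript, Cpt1b stood at 0.165 ± 0.0209 of the Cpt1a level in WT and at 1.56 ± 0.750 of it in the libraries labelled Hsp20 KO (SD, n = 3 each). The ratio was 0.713, 2.14 and 1.83 in these 3 libraries, so Cpt1b exceeded Cpt1a in replicates 2 and 3 and not in replicate 1. The exact permutation test gave p = 0.1 (two-sided, adjusted p = 0.15 over 9 gene pairs), and 0.1 is the smallest p that 3 against 3 allows. Counts of Cpt1b need care, since an annotated readthrough gene, Gm44502, spans Cpt1b and its neighbour Chkb. Gm44502 held between 96.3% and 97.5% of the sum of Chkb and Cpt1b counts in each library, so reads of Cpt1b are counted under it as well. Chkb, a choline kinase that lies 487 bases from Cpt1b, went from 45.4 ± 2.58 to 60.0 ± 9.95 CPM and did not pass (log2 change 0.40, edgeR adjusted p = 0.0965), but passed without the library labelled replicate 1 (0.0145).

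**Figure D2:**
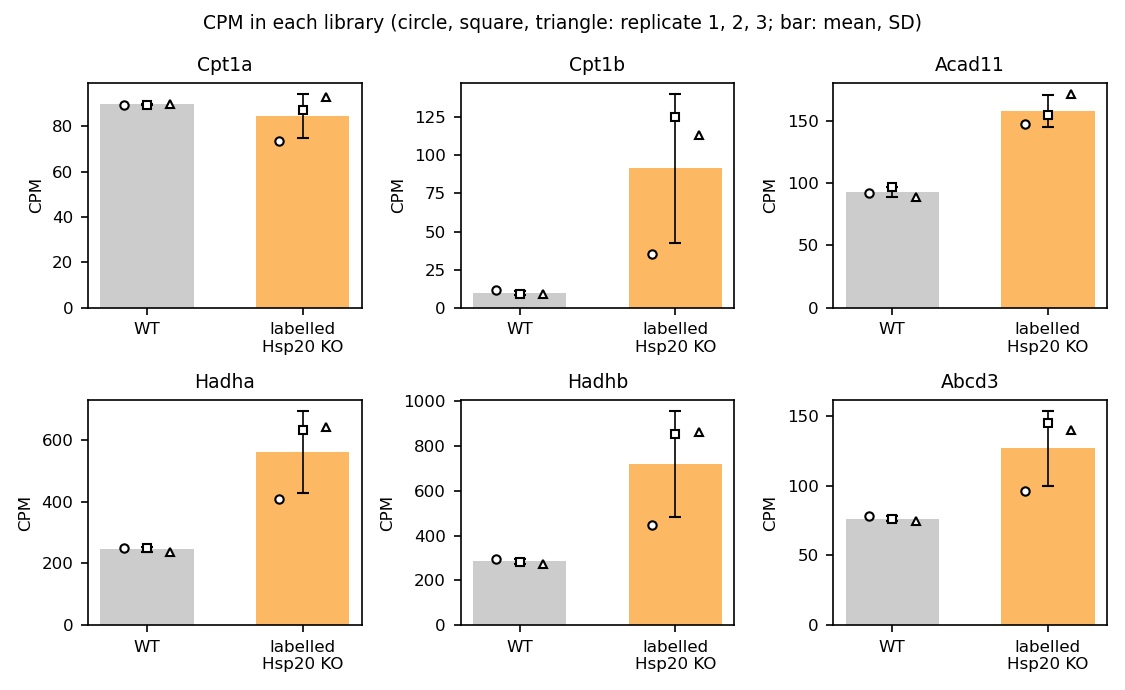
CPM of Cpt1a, Cpt1b, Acad11, Hadha, Hadhb and Abcd3 in each library (symbols, 1 per library), with the mean of each group as a bar and the SD as an error bar. The groups overlap for Cpt1a and are apart for the other 5 genes.

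The remaining carnitine enzymes moved less than Cpt1b. Cpt2, which releases acyl-CoA inside the mitochondrion, was at 103, 130 and 110 CPM in WT and 149, 167 and 196 CPM in the libraries labelled Hsp20 KO. It rose 1.49-fold (edgeR adjusted p = 0.0388, or 0.0209 without the library labelled replicate 1). With any other single library left out Cpt2 did not pass (edgeR adjusted p from 0.0738 to 0.152). Crat, a carnitine acetyltransferase of mitochondria and peroxisomes that buffers acetyl-CoA, was at 248, 246 and 213 CPM in WT and 308, 349 and 383 CPM in the others, without overlap. It rose 1.47-fold (adjusted p = 0.0314, or 0.0141 without the library labelled replicate 1). With any other single library left out Crat did not pass (edgeR adjusted p from 0.0620 to 0.145). Slc22a5, the carnitine carrier of the plasma membrane, was between 35.6 and 41.2 CPM in WT and between 38.0 and 42.3 CPM in the libraries labelled Hsp20 KO (log2 change 0.04 ± 0.09). A share of 27.1% of its 50-base transcript windows also occurs in other genes, nearly all in Slc22a21, so reads could be split between them.

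Of the acyl-CoA synthetases, 1 of 2 rose. Acsl1, the main long-chain synthetase of fat cells, was at 1219, 1328 and 1326 CPM in WT and at 1842, 2150 and 3042 CPM in the libraries labelled Hsp20 KO. The groups were apart, and Acsl1 rose 1.82-fold (edgeR adjusted p = 0.0427, or 0.0148 without the library labelled replicate 1). With any other single library left out Acsl1 did not pass (edgeR adjusted p from 0.0556 to 0.152). Per kilobase it was the highest of the 34 members in both groups, at 331.25 ± 16.01 CPM per kb in WT and 602 ± 160 in the others. Acsl5 was at 91.7 ± 2.58 and 92.3 ± 6.04 CPM, with overlapping groups (log2 change 0.01 ± 0.08). Per kilobase, Acsl5 stood at 0.0653 ± 0.00214 of Acsl1 in WT and at 0.0380 ± 0.0106 in the libraries labelled Hsp20 KO (exact permutation p = 0.1, adjusted p = 0.15).

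The acyl-CoA dehydrogenases, which carry out the first step in mitochondria and differ in the chain length they take, rose in 4 of 4 of the classical forms. Acadvl, for very long chains and bound to the inner membrane, was at 223, 208 and 199.7 CPM in WT and at 342, 496 and 508 CPM in the libraries labelled Hsp20 KO. It rose 2.13-fold (log2 change 1.09 ± 0.16, edgeR adjusted p = 0.0123), or by a log2 change of 1.25 without the library labelled replicate 1. The groups were apart, as they were for the shorter-chain enzymes. Acadm, for medium chains, rose from 264 ± 12.3 to 448 ± 93.7 CPM. Acads, for short chains, rose from 113 ± 7.42 to 181 ± 33.9 CPM, and Acadl, for long chains, from 262 ± 16.1 to 389 ± 55.8 CPM (SD, n = 3 each). Their edgeR adjusted p-values ran from 0.0317 to 0.0388.

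The less studied family members differed from each other. Acad11, a dehydrogenase assigned to both mitochondria and peroxisomes (chr9:104063724-104127656, plus strand), was at 91.8, 97.1 and 89.0 CPM in WT. In the libraries labelled Hsp20 KO it was at 147, 154 and 172 CPM, so these 3 lay closer together than for most other members. Acad11 rose 1.70-fold (log2 change 0.77 ± 0.08, edgeR adjusted p = 0.00524), the smallest adjusted p of the 34. It was the only member called with each of the 6 libraries left out in turn (adjusted p from 0.00295 to 0.0406). Acad11 overlaps Ackr4, a chemokine receptor gene on the other strand, which was at 6.71 ± 1.30 and 11.0 ± 1.27 CPM and rose 1.64-fold (adjusted p = 0.0462, or 0.0702 without the library labelled replicate 1). Without a stated strand setting, reads of the 2 genes cannot be told apart where they overlap. Acad10 went from 27.4 ± 3.02 to 36.5 ± 2.82 CPM and did not pass (adjusted p = 0.0555), although its groups were apart, and 21.8% of its 50-base windows also occur in Acad12.

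The mitochondrial trifunctional protein, which performs the last 3 steps on long chains, had the largest rises after Cpt1b together with the thiolase Acaa2. Hadha, its hydratase and dehydrogenase subunit (chr5:30119423-30154980, minus strand), was at 249.5, 252 and 237 CPM in WT and at 409, 635 and 644 CPM in the libraries labelled Hsp20 KO. Hadhb, its thiolase subunit (chr5:30155253-30184593, plus strand), was at 296, 283 and 275 CPM in WT and at 447, 852 and 862 CPM in the others. In both genes replicates 2 and 3 were nearly level and replicate 1 stood between them and WT. Hadha rose 2.29-fold and Hadhb 2.53-fold (edgeR adjusted p = 0.0127 and 0.0221), or by log2 changes of 1.38 and 1.59 without the library labelled replicate 1. These are the 2 genes whose shared upstream stretch is printed above. Their ratio per kilobase was 0.441 ± 0.0120 in WT and 0.409 ± 0.0496 in the libraries labelled Hsp20 KO (exact permutation p = 0.4, adjusted p = 0.45). It was 0.380 and 0.381 in replicates 2 and 3, below every WT library, and 0.466 in replicate 1, above every one. Of the 50-base windows of Hadhb 61.5% also occur in Gm13910, an annotated processed pseudogene on chromosome 2, so its counts may depend on how the authors treated reads with several matches.

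The enzymes that act on medium and short chains were less even. Acaa2, the medium-chain thiolase, was at 133, 125 and 114 CPM in WT and at 159, 331 and 388 CPM in the libraries labelled Hsp20 KO, with replicate 1 close to WT and the other 2 well above it. It rose 2.36-fold (edgeR adjusted p = 0.0442), a call that limma-voom did not make (adjusted p = 0.0504). Hadh, the short-chain hydroxyacyl-CoA dehydrogenase, was at 257, 250.1 and 241 CPM in WT and at 354, 415 and 469 CPM in the others. It rose 1.65-fold (adjusted p = 0.0170). Echs1, the short-chain hydratase, went from 208 ± 7.90 to 255 ± 22.7 CPM and did not pass (adjusted p = 0.0980), although its groups were apart. Hsd17b10, a dehydrogenase of short branched acyl-CoAs that is also a part of mitochondrial RNase P, was at 70.6 ± 6.69 and 70.3 ± 4.18 CPM with overlapping groups.

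Enzymes that prepare unsaturated fatty acids also split. Decr1, the mitochondrial dienoyl-CoA reductase, was at 168, 179 and 161 CPM in WT and 209, 277 and 318 CPM in the libraries labelled Hsp20 KO. It rose 1.58-fold (edgeR adjusted p = 0.0399). Eci1, the mitochondrial enoyl-CoA isomerase, was at 86.6 ± 7.34 and 104 ± 13.8 CPM, and Eci2, its relative in both compartments, at 68.5 ± 5.22 and 85.4 ± 8.32 CPM. Neither passed (adjusted p = 0.192 and 0.0889), although the groups were apart for both.

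Of the 3 genes that pass electrons on to ubiquinone, 1 rose. Etfdh, the oxidoreductase of the inner membrane, was at 82.99, 93.1 and 84.6 CPM in WT and at 113, 172 and 185 CPM in the libraries labelled Hsp20 KO. It rose 1.801-fold (edgeR adjusted p = 0.0316). Etfa and Etfb, the subunits of the flavoprotein that feeds it, went from 257 ± 16.6 to 305 ± 38.3 CPM and from 222 ± 4.85 to 278 ± 35.7 CPM. Of the windows of Etfb 67.3% also occur in Gm45233, which overlaps it. Neither subunit passed (adjusted p = 0.222 and 0.109), and their ratio per kilobase was 0.743 ± 0.0393 and 0.704 ± 0.0178 (exact permutation p = 0.2, adjusted p = 0.257). In WT, Etfb and Etfa held the second and the third rank of the 34 members per kilobase, at 248 ± 5.43 and 184 ± 11.9 CPM per kb, while Etfdh stood at 36.6 ± 2.30. After them Hadh, Hadhb, Acadl, Echs1 and Acadm lay between 129 and 139 CPM per kb in WT, where neighbours in this order differed by less than their SDs. In the libraries labelled Hsp20 KO Hadhb ranked second at 352 ± 115.

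**Figure D3:**
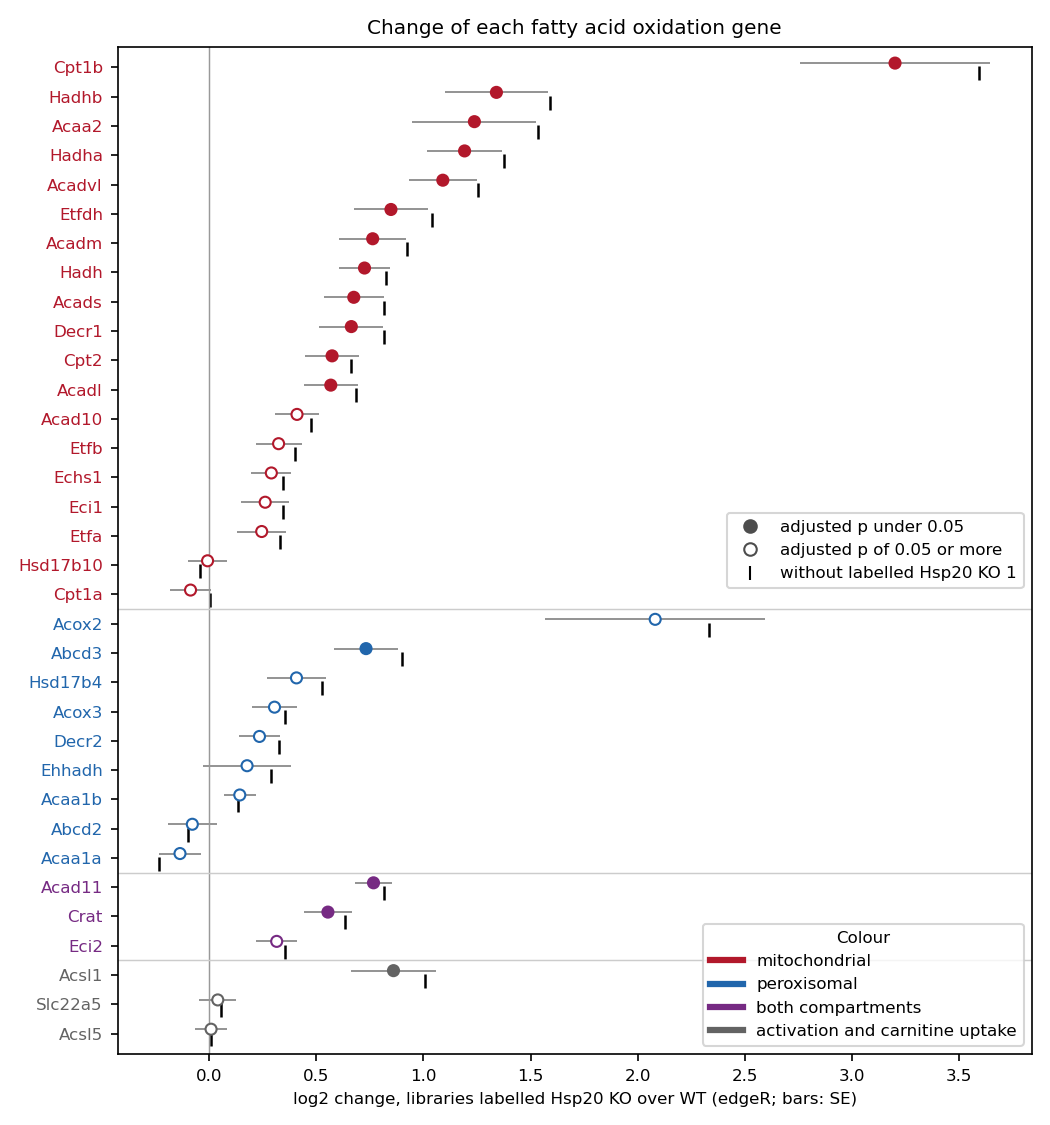
Log2 change of each gene between the libraries labelled Hsp20 KO and WT (points, with the SE as bars), filled where the edgeR adjusted p was under 0.05. Black ticks give the log2 change without the library labelled replicate 1; they lie to the right of the point for all 16 genes that rose.

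Among the peroxisomal genes, the transporters differed. Abcd3, also called PMP70, which carries branched and long acyl-CoAs into the peroxisome, was at 78.1, 76.6 and 74.5 CPM in WT. It was at 96.3, 145 and 140 CPM in the libraries labelled Hsp20 KO, without overlap. Abcd3 rose 1.66-fold (log2 change 0.73 ± 0.15, edgeR adjusted p = 0.0310), or by a log2 change of 0.90 without the library labelled replicate 1. Abcd2, a transporter of very long chains that is abundant in fat, was at 410, 434 and 400.3 CPM in WT and at 406, 342 and 432 CPM in the others (log2 change -0.08 ± 0.11). Per kilobase Abcd2 stood at 3.43 ± 0.137 times Abcd3 in WT and at 2.03 ± 0.588 times in the libraries labelled Hsp20 KO (exact permutation p = 0.1, adjusted p = 0.15).

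The peroxisomal oxidases and later enzymes did not pass in the main test. Acox2, the oxidase of branched chains and bile acid intermediates, had only 7, 5 and 10 counts in WT and 20, 39 and 8 counts in the libraries labelled Hsp20 KO. As CPM its groups were apart, from 0.246 ± 0.0731 to 1.03 ± 0.654, with a log2 change of 2.08 ± 0.51 (edgeR adjusted p = 0.0509). Acox2 was the only member under 1 CPM in WT, and its depth limits what can be said. Acox3, a further branched-chain oxidase, was at 53.9 ± 4.72 and 66.6 ± 7.15 CPM (adjusted p = 0.118). Ehhadh, the bifunctional hydratase and dehydrogenase, spanned 47.9 to 84.7 CPM within WT alone and 65.7 to 85.6 CPM in the others, so its groups overlapped (log2 change 0.18 ± 0.20). Without WT replicate 1, its lowest library, the log2 change of Ehhadh was -0.03.

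Hsd17b4, the second bifunctional enzyme, was at 208, 222 and 208 CPM in WT and at 235, 272 and 340 CPM in the libraries labelled Hsp20 KO. The groups were apart, but it did not pass (log2 change 0.41 ± 0.14, edgeR adjusted p = 0.112). It passed without the library labelled replicate 1 (adjusted p = 0.0330), as did Decr2, the peroxisomal dienoyl-CoA reductase (0.0462), and Acox2 (0.0390). Decr2 was at 30.1 ± 0.812 and 35.5 ± 3.92 CPM with all libraries, where its groups overlapped. Acaa1a, a peroxisomal thiolase, was at 116, 113 and 110.4 CPM in WT and at 117, 91.9 and 101 CPM in the others (log2 change -0.13 ± 0.10). Acaa1b, its close copy 184 kb away on chromosome 9, was at 56.7 ± 2.13 and 62.6 ± 3.49 CPM (log2 change 0.14 ± 0.08). The copies share 34.03% and 35.5% of their 50-base windows, so both values are uncertain, and neither passed.

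Per library labelled Hsp20 KO, the medians of the mitochondrial and peroxisomal members differed. Each gene was set against its own WT mean, so medians near 0 in the WT libraries follow from that choice. The median log2 distance from the WT mean was 0.03, 0.03 and -0.06 for mitochondrial genes in WT replicates 1 to 3, and 0.36, 0.72 and 0.91 in the libraries labelled Hsp20 KO replicates 1 to 3. For peroxisomal genes, Acox2 among them, it was 0.03, 0.04 and -0.03, and then 0.14, 0.35 and 0.31. The mitochondrial median thus lay above the peroxisomal one by 0.22, 0.36 and 0.60 in the 3 libraries labelled Hsp20 KO. The small gaps in WT carry no contrast, since both lists are centred there. Summed over genes, mitochondrial CPM was 3.11, 3.00 and 2.93 times peroxisomal CPM in WT, and 3.77, 5.10 and 4.83 times in the others.

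**Figure D4:**
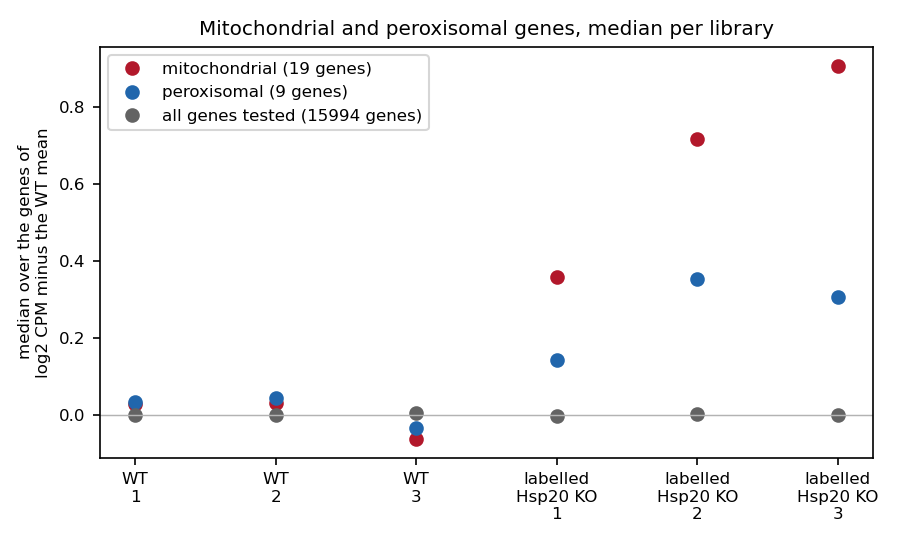
Median over genes of log2 CPM minus the WT mean, per library, for the 19 mitochondrial genes, the 9 peroxisomal genes (Acox2 among them) and all 15994 genes tested. All 3 medians lie near 0 in WT because each gene is set against its own WT mean. In the libraries labelled Hsp20 KO the mitochondrial median is highest and the peroxisomal one lower. That of all genes is near 0, where the scaling of libraries keeps it.

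Pairs of enzymes with the same task were set side by side per kilobase, of which the first 2 set a mitochondrial against a peroxisomal enzyme. Decr1 stood at 4.22 ± 0.142 times Decr2 in WT and at 5.65 ± 0.691 times in the libraries labelled Hsp20 KO. Hadha stood at 2.82 ± 0.931 times Ehhadh in WT and at 5.29 ± 0.593 times in the others. For both pairs the groups did not overlap (exact permutation p = 0.1, adjusted p = 0.15). Eci1 stood at 1.95 ± 0.205 and 1.87 ± 0.108 times Eci2, with overlapping groups (exact permutation p = 0.7, adjusted p = 0.70). Since Eci2 is present in both compartments, this pair does not contrast them.

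Other genes of the pathway, from fixed lists, are given by their counts. Of 17 further mitochondrial genes of acyl-CoA and ketone metabolism 2 rose and 1 fell, with a median log2 change of 0.24. Acot2, a mitochondrial acyl-CoA thioesterase, rose from 16.2 ± 0.732 to 29.6 ± 4.81 CPM, and Acot13, a further thioesterase, from 13.5 ± 0.537 to 19.2 ± 2.69 CPM (edgeR adjusted p = 0.0114 and 0.0471). Oxct1, which activates ketone bodies, fell from 237 ± 7.40 to 185 ± 14.4 CPM (adjusted p = 0.0471, or 0.0640 without the library labelled replicate 1). Without that library 5 of the 17 were called higher and 0 lower. Acad9, an assembly factor of complex I related to the dehydrogenases, had a log2 change of 0.02. The carnitine-acylcarnitine carrier Slc25a20, named after its values were seen, went from 61.5 ± 4.57 to 99.6 ± 30.0 CPM and did not pass (adjusted p = 0.0874).

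Of 20 further peroxisomal genes 19 were tested, 4 rose and 1 fell, with a median log2 change of 0.21. Of the 17 further mitochondrial genes 2 rose, with a median of 0.24. The contrast between compartments seen among the members was thus not seen in these 2 further lists. Slc27a2, a very long chain acyl-CoA synthetase, rose from 0.729 ± 0.351 to 7.61 ± 0.525 CPM (edgeR adjusted p = 0.00245). Nudt7, a hydrolase of coenzyme A, rose from 32.0 ± 2.17 to 51.3 ± 6.00 CPM, while Nudt19, a related hydrolase named after its values were seen, fell from 24.6 ± 0.630 to 18.4 ± 1.90 CPM. Without the library labelled replicate 1 Nudt19 did not pass (adjusted p = 0.0684), and 7 genes of the list were called higher and 0 lower. Acot4, a peroxisomal thioesterase, rose from 3.50 ± 0.771 to 7.02 ± 0.228 CPM and Amacr, a racemase of branched acyl-CoAs, from 8.90 ± 0.586 to 12.8 ± 0.683 CPM. Hacl1, of alpha-oxidation, and Slc25a17, a carrier of the peroxisomal membrane, had log2 changes of 0.02 and 0.01.

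Of 16 peroxins, the proteins that build peroxisomes, 2 rose and 0 fell, while before adjustment (p under 0.05) 7 were higher and 0 lower (median log2 change 0.27). Pex14, part of the import pore, went up from 36.2 ± 1.205 to 57.0 ± 3.67 CPM (adjusted p = 0.00655 by edgeR), and Pex16, which acts in membrane assembly, from 71.7 ± 2.89 to 114 ± 16.6 CPM (0.0167). Without the library labelled replicate 1, 6 peroxins were called higher and 0 lower. Pex2, of the ubiquitin ligase of the import machinery, had a log2 change of 0.08. Per library labelled Hsp20 KO, the peroxin median lay 0.20, 0.14 and 0.46 higher than in WT (log2).

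Of 10 transcriptional regulators of these genes 2 rose and 1 fell, or 3 and 1 without the library labelled replicate 1. Esrra and Esrrg, estrogen-related receptors that act on oxidative genes, rose from 42.8 ± 1.79 to 71.0 ± 8.57 CPM and from 1.24 ± 0.0348 to 4.98 ± 2.32 CPM (edgeR adjusted p = 0.0113 and 0.0253). Ncor1, a corepressor, fell from 352 ± 41.1 to 250.1 ± 10.1 CPM (0.0373). Ppargc1a and Ppargc1b, the coactivators PGC-1alpha and beta, had log2 changes of 0.02 ± 0.33 and 0.55 ± 0.40 and did not pass. Ppara, the receptor that controls fatty acid oxidation genes in liver and brown fat, named after its values were seen, was at 32.4, 21.5 and 13.8 CPM in WT and at 32.1, 87.5 and 76.1 CPM in the libraries labelled Hsp20 KO. Its groups overlapped through WT replicate 1 and the library labelled replicate 1 (adjusted p = 0.0636, or 0.0125 without the latter).

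Markers of other cells were measured beside these genes. All 8 markers of brown or beige adipocytes rose, also without the library labelled Hsp20 KO replicate 1. With edgeR 5 rose when WT replicate 1 was left out and 2 when WT replicate 2 or 3 was. Leaving out the library labelled Hsp20 KO replicate 2 or 3 gave 4. With limma-voom 4 rose and with the replicate number as a block 2, and all 8 were higher before adjustment (p under 0.05) in each of these fits. Their summed level was 69.1 to 94.7 CPM in WT and 215, 655 and 802 CPM in the libraries labelled Hsp20 KO replicates 1 to 3. In bulk tissue a change in the number of such cells and a change in RNA per cell cannot be told apart, and the part of these cells in the members' rises was not tested. Of 10 skeletal muscle markers 0 were called by edgeR, while before adjustment (p under 0.05) 0 were higher and 8 lower. Their summed level was 966, 94.3 and 147 CPM in WT replicates 1 to 3 and 63.6 to 112 CPM in the others. Cpt1b is also a muscle gene, and the part of muscle RNA in its values was not tested. Without the library labelled replicate 1, 0 muscle markers were called, and before adjustment (p under 0.05) 0 were higher and 0 lower. Of 7 macrophage markers edgeR called 0, while before adjustment (p under 0.05) 0 were higher and 3 lower, and their summed level was 1326 to 1505 CPM in WT and 1120.4 to 1465 CPM in the others. Of 7 lymphocyte, 5 endothelial and 5 progenitor markers edgeR called 0, and before adjustment (p under 0.05) 1 of the 17 was higher and 1 lower. Without the library labelled replicate 1, edgeR called 3 macrophage markers, 2 progenitor markers and 1 adipocyte marker lower, in the fit that called 20 members higher. Their part in the members' changes was not tested. Of 5 liver markers Fgb and Cyp3a11 were at 0 in every library, and the list summed to 19.8 to 27.5 CPM.

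**Figure D5:**
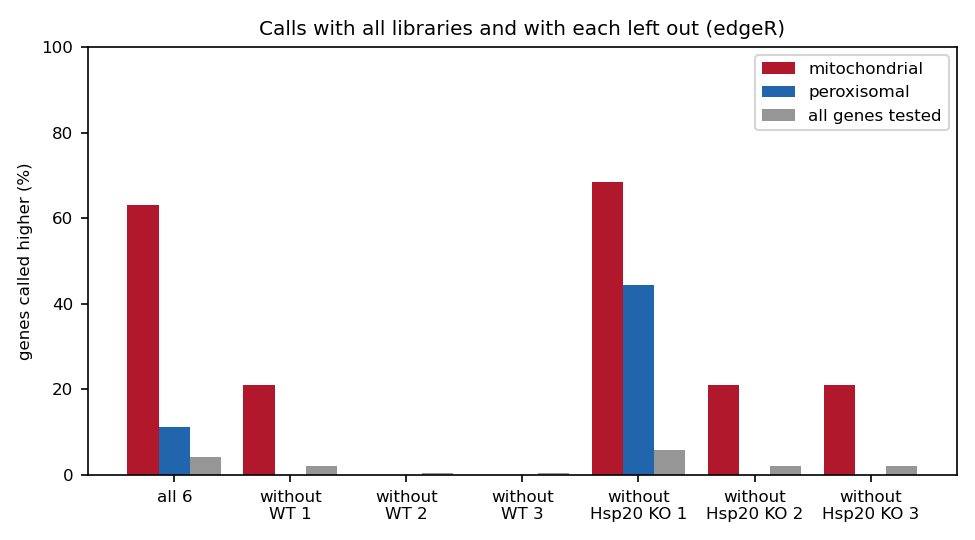
Percent of genes called higher by edgeR (adjusted p under 0.05) with all 6 libraries and with each left out, for mitochondrial genes, peroxisomal genes and all genes tested. Calls are fewest without WT replicate 2 or 3, where no mitochondrial or peroxisomal gene is called, and most numerous without the library labelled Hsp20 KO replicate 1.

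The members lie on 17 chromosomes. On chromosome 7, which holds Hspb6, the nearest is Etfb at 12.9 Mb from it, and Echs1 lies 110 Mb away.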

How the data were processed

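Whole-number counts of reads per Entrez gene ID, not normalized, were deposited with 1 column per library, per the file headers and labels. Per the submitters' processing notes, TopHat, DESeq, bcl2fastq and CASAVA 1.8 were used, with GRCm38 (mm10) as the build. The counter, annotation, strand setting and treatment of reads with several matches were not stated. Symbols came from RefSeq (GRCm38.p6) for 24334 of 24415 IDs. The other 81 held 1.30% to 5.74% of a library's counts and stayed in the fits.

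Tests used edgeR 4.0.16 in R 4.3.3. Genes passed filterByExpr with a minimum count of 10 and a minimum total of 15, libraries were scaled by TMM, and genotype was tested over all 6 libraries by the quasi-likelihood F test. P-values were adjusted by Benjamini-Hochberg over 15994 genes, with a threshold of 0.05. SEs are those implied by F, and log2 CPM used a prior count of 2. Per-kilobase levels divide CPM by the longest GENCODE transcript matched to RefSeq, whose 50-base windows were compared with all other transcripts. Gene pair ratios, added after the data were seen, were compared by exact permutation. Scripts were tested on simulated counts. Alternatives were DESeq2 1.42.0, its size factors, upper quartile factors, other filters, limma-voom (limma 3.58.1), a replicate block and leaving out each library. Replicates differed by more than counting noise (chi-square over its degrees of freedom was at least 17.9).

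The members and lists were chosen with earlier results of these data known. All 34 members may be named, and of other lists up to 4 called genes with the smallest p and 2 uncalled genes with the largest. Some genes this rule names are not reported here.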

Additional observations from a re-analysis of the deposited data

How the results depend on the processing

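The median log2 change stayed positive under every alternative run, from 0.53 to 0.81 for mitochondrial genes and from 0.19 to 0.33 for peroxisomal ones. Leaving out 1 library at a time gave 1 to 20 members called higher, 0 to 13 mitochondrial and 0 to 4 peroxisomal, with 75 to 941 genes higher and 53 to 730 lower in all. DESeq2 called 1134 of 21669 genes higher and 1013 lower, with 22 members, 15 mitochondrial and 3 peroxisomal genes higher. Upper quartile factors and no filter each gave 2 peroxisomal genes higher, with 754 of 15994 and 737 of 21669 genes higher in all. These 2 fits called 18 and 17 members higher, 13 and 12 of them mitochondrial. With the replicate number as a block 226 genes were higher and 169 lower, with 4 members, 3 mitochondrial and 0 peroxisomal genes higher. Deviations from the group mean had correlations of -0.04, 0.09 and -0.10 between same-numbered libraries, and of -0.08 to 0.12 between differently numbered ones. With 3 libraries in each group these values cannot exclude a pairing or a batch. The cause of the shifts in these counts was not tested.

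Signs turned for 6 members, none of them called. Hsd17b10 had a log2 change of 0.00828 with upper quartile factors. Over the fits that left out 1 library, log2 changes ran from -0.149 to 0.00628 for Cpt1a, from -0.0667 to 0.0693 for Hsd17b10, from -0.0328 to 0.353 for Ehhadh, from -0.142 to 0.0141 for Abcd2, from -0.0371 to 0.0635 for Acsl5 and from -0.0139 to 0.0838 for Slc22a5. Depth limits Acox2 most, with 5 to 39 counts per library.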
